A study of Mus musculus with 21 samples.

Results

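The 33 genes described here encode enzymes, transporters and regulators of glucose breakdown. They cover glucose import, the steps of glycolysis to pyruvate, lactate formation and export, the pyruvate dehydrogenase entry step, the pentose phosphate pathway and the mitophagy receptor Bnip3. They were taken by gene name from the 39396 genes of a count matrix, and all 33 were found. Their expression was followed in mouse pluripotent stem cells at 4 stages. Ground state embryonic stem cells of both lines were kept in DMEM with 10% FBS, 1000 U/mL LIF and 2i. Naive embryonic stem cells of both lines were kept at 1000 U/mL LIF and had 2i, a pair of kinase inhibitors, removed for 4 days. EPL cells (early primitive ectoderm-like cells) of lines D3 and A2 were grown for 4 days in DMEM with 10% FBS, 330 U/mL LIF and 400 µM L-proline, in a medium listed without 2i. EpiSCs are post-implantation epiblast stem cells, here from the A2 line only: A2 embryonic stem cells were implanted in a pseudopregnant mouse, the EpiSCs were isolated after implantation, and they were grown in KO DMEM with KOSR, Activin A and bFGF. Each of these 7 combinations of line and stage had 3 libraries, 21 in all. EpiSCs therefore differ from the A2 cells at the other stages in history, medium and factors at once. Those contributions cannot be told apart. EPL cells differ from naive cells in LIF and proline together, and from ground state cells in 2i as well. The parts of these factors cannot be told apart either.

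Glycolysis splits a glucose molecule into pyruvate in the cytoplasm, and lactate dehydrogenase turns pyruvate into lactate, which monocarboxylate transporters carry out of the cell. Pyruvate that enters mitochondria is instead oxidised by the pyruvate dehydrogenase complex, which pyruvate dehydrogenase kinases switch off. The pentose phosphate pathway branches off after the first step and supplies NADPH and ribose for nucleotides. Several steps have alternative enzymes from different genes. Mouse embryonic stem cells in the naive state are known for using both glycolysis and mitochondrial respiration, and primed pluripotent cells for relying more on glycolysis. Many glycolytic genes are textbook targets of hypoxia-inducible factors and of Myc.

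The libraries held 15320599 to 23490527 counts assigned to genes. Levels are given as CPM, the standard per-library scaling of read counts, with trimmed mean of M values (TMM) factors, and as CPM per kilobase of exon where genes are compared with each other. Differences are log2 changes with standard errors from an edgeR quasi-likelihood fit to all 21 libraries, and a gene was called higher or lower at a Benjamini-Hochberg adjusted p below 0.05 over 16575 genes tested. All 33 genes passed the filter on low counts. The labels give 3 libraries per group but not separate cultures or animals, so the p-values measure the spread between these libraries, which may be technical. The stage markers moved with the labels in EPL cells: the epiblast gene Fgf5 averaged 24.4 CPM in D3 EPL cells against 0.0155 in D3 ground state cells, and the naive gene Tbx3 19.03 against 292 CPM. In EpiSCs Fgf5 averaged 12.7 CPM, against 4.51 CPM in A2 EPL cells, while Otx2, an epiblast transcription factor, averaged 13.2 against 59.2 CPM and Tbx3 84.7 against 21.2 CPM. Of the genes followed as EpiSC markers, T averaged 4.41 CPM in EpiSCs against 0.229 in A2 EPL cells and Foxa2 3.05 against 0.465. Cer1 averaged 0.211 CPM in EpiSCs and did not pass the filter. Pou5f1 and Sox2, followed as markers of all stages, averaged 489 and 236 CPM in EpiSCs, against 1074 and 470 in A2 EPL cells. EpiSC replicate 3 stood apart from the other EpiSC libraries for these metabolic genes. It held the lowest level of 28 of the 33, whereas it held the lowest level of 40.5% of all genes tested. Such a count was not particular to it: A2 ground state replicate 2 was lowest for 26 and D3 ground state replicate 2 for 24. The spread was larger in EpiSCs, with a median SD of 0.231 on the log2 scale over the 33 genes. In the other groups that median was 0.0704 to 0.133.

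Per kilobase of exon, Pkm, the pyruvate kinase of proliferating and muscle cells, had the highest mean level, 998 CPM per kilobase in A2 EPL cells. Eno2, the neuronal enolase, had the lowest, 0.334 CPM per kilobase in A2 ground state cells. Together the 33 genes held 1.22% ± 0.09 of all counts in D3 ground state cells, 1.50% ± 0.13 in D3 naive cells and 1.79% ± 0.02 in D3 EPL cells (SD, n = 3 each). The same share in A2 was 1.39% ± 0.07 in ground state cells, 1.54% ± 0.06 in naive cells, 1.83% ± 0.09 in EPL cells and 1.12% ± 0.25 in EpiSCs (SD, n = 3 each). The share was therefore highest in EPL cells of both lines and most variable between EpiSC libraries.

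**Figure D1:**
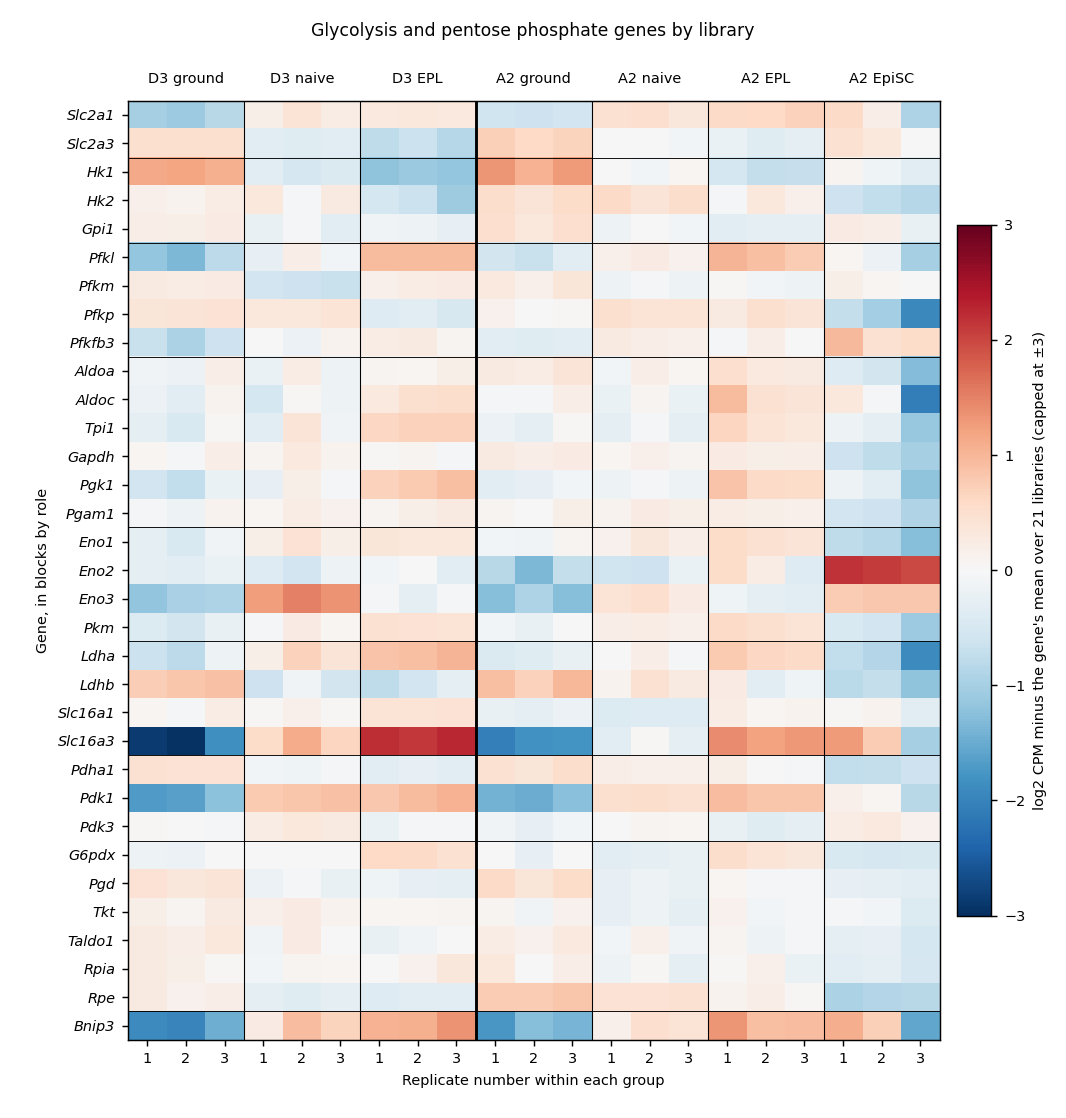
Level of each of the 33 genes in each of the 21 libraries, as the log2 CPM minus that gene's mean over all libraries. Columns are libraries by line and stage, and rows are genes in blocks by role. Slc16a3, Bnip3 and Pdk1 are low in the ground state libraries and higher in naive and EPL libraries of both lines, Hk1 and Ldhb show the opposite pattern, and EpiSC replicate 3 is low in most rows.

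Of the 33 genes, 4 were at least 1 log2 unit higher in both naive and EPL cells than in ground state cells and had a promoter sequence in RefSeq: Slc2a1, Slc16a3, Pdk1 and Bnip3. Their promoters are shown because these are the genes with the largest joint rise. The windows run from 250 bases before to 50 after the RefSeq gene start on GRCm38.p6, and capitals mark ACGTG and GCGTG, the 2 forms of the core hypoxia response element, on either strand (CACGT and CACGC when read on the other). The Slc2a1 window lies at chr4:119108495-119108794 on the plus strand, that of Slc16a3 at chr11:120948817-120949116 on the plus strand, that of Pdk1 at chr2:71872974-71873273 on the plus strand, and that of Bnip3 at chr7:138909457-138909756 on the minus strand.
Slc2a1: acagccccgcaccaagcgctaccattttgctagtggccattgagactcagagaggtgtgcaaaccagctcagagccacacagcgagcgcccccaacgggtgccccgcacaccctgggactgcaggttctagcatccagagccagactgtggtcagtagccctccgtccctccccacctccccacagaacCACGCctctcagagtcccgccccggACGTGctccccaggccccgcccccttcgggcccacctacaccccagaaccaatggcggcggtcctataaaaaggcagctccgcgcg
Slc16a3: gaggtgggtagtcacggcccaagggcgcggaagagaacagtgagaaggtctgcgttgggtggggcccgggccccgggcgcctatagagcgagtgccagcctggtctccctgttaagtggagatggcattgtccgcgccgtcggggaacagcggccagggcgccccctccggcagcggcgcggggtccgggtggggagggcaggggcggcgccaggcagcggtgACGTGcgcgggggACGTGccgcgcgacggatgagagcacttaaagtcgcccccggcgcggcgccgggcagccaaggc
Pdk1: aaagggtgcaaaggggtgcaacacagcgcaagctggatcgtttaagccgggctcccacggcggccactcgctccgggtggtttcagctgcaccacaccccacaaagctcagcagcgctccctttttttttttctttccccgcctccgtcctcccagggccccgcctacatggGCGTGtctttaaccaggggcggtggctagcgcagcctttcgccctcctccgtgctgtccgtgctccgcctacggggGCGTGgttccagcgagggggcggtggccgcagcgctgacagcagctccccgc
Bnip3: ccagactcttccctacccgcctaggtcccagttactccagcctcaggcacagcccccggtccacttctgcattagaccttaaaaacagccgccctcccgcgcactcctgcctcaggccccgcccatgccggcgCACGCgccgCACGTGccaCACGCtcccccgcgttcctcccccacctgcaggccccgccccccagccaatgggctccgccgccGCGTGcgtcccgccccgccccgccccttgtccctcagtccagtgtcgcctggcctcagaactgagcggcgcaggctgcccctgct
A window was found for 32 of the 33 genes, all but Slc2a3. ACGTG was present in 14 of the 32 windows, GCGTG in 20 and at least 1 of the 2 in 25. Among all 32851 promoter windows 19.6% held ACGTG, 32.4% GCGTG and 43.8% either motif, and among the 15217 windows of genes tested 59.6% did. CACGTG, the E-box that Myc proteins can bind and which contains ACGTG, was present in 4 of the 32 windows and in 7.15% of all windows. For each motif alone, the share among windows of genes tested was not counted, so its background is that of all windows only. These matches are short letter patterns and were not tested as binding sites.

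In naive cells, which had lost 2i for 4 days, 11 of the 33 genes were higher than in the ground state, 10 were lower and 12 were not called. Over all genes tested, 31.7% were called higher and 31.8% lower, so the number of calls among the 33 was near the background. The median log2 change was 0.02 over the 33 and 0.01 over all genes tested. In EPL cells 17 genes were higher than in the ground state, 10 were lower and 6 were not called, against 33.1% higher and 33.2% lower over all genes. The median was 0.15 over the 33 and 0.00 over all genes. Set directly against naive cells, EPL cells had 12 genes higher, 8 lower and 13 not called, beside 27.1% and 24.1% of all genes, with medians of 0.11 and 0.01. These 3 comparisons share libraries, and each averages the differences within D3 and within A2.

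**Figure D2:**
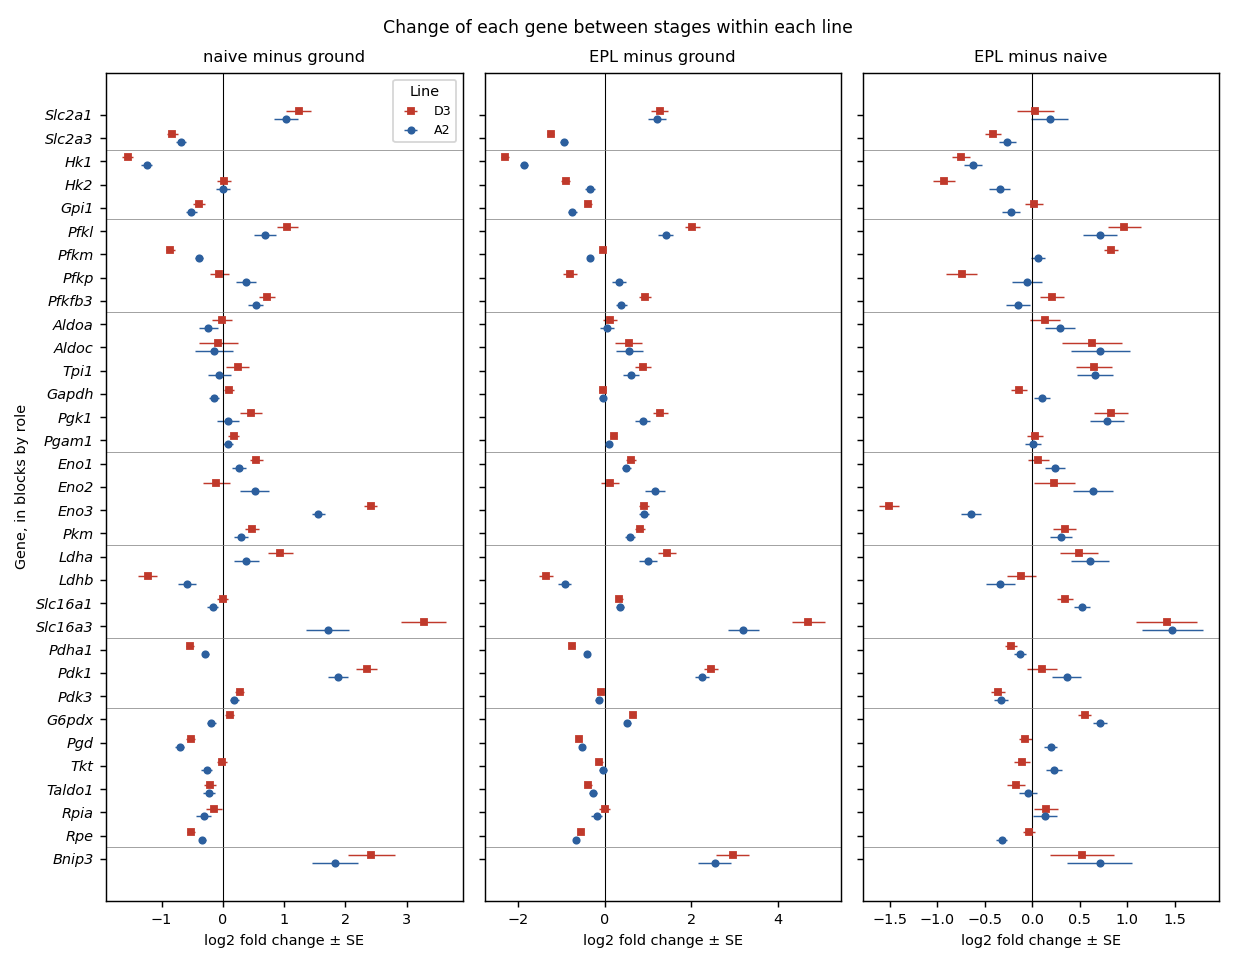
Log2 fold changes with standard errors of the 33 genes in blocks by role, shown separately for D3 and A2. The panels show naive against ground state cells, EPL against ground state cells and EPL against naive cells. In EPL against ground state cells Slc16a3 lies furthest to the right, at 4.69 in D3 and 3.19 in A2, and Hk1 furthest to the left, at -2.30 and -1.86.

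The glucose transporters changed in opposite directions. Slc2a1, which encodes GLUT1, had 224, 211 and 252 CPM in the 3 D3 ground state libraries, 502, 595 and 521 in the naive libraries and 550.5, 554 and 551 in the EPL libraries. In A2 the values were 296, 293 and 302 CPM in ground state, 613, 636 and 567 in naive and 665, 676 and 723 in EPL libraries. Every naive and EPL library exceeded every ground state library of its line. The log2 change was 1.13 ± 0.14 in naive cells (edgeR adjusted p = 3.14e-07) and 1.24 ± 0.14 in EPL cells (edgeR adjusted p = 6.5e-08), each against the ground state, and the difference between EPL and naive cells was not called (0.11 ± 0.14, edgeR adjusted p = 0.542). Slc2a3, which encodes the high-affinity transporter GLUT3, was the more abundant in ground state cells and fell. It had 1182, 1186 and 1183 CPM in D3 ground state, 678, 660.4 and 667 in naive and 496, 540.0 and 468 in EPL libraries. The A2 libraries showed the same order, with 1379.9, 1268 and 1340.3 CPM in ground state, 852, 842 and 798 in naive and 739, 659 and 684 in EPL libraries. No library of a later stage overlapped those of the stage before it in either line. Slc2a3 fell by 0.75 on the log2 scale in naive cells (edgeR adjusted p = 2.59e-10) and by 1.09 in EPL cells (edgeR adjusted p = 2.96e-13) against the ground state.

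Hexokinases, which trap glucose as glucose-6-phosphate, also moved unevenly. Hk1, the housekeeping form, had 146, 152 and 139.8 CPM in D3 ground state libraries, 53.5, 46.99 and 49.1 in naive and 28.8, 30.5 and 29.7 in EPL libraries. In A2 it had 167, 137 and 160.1 CPM in ground state, 65.6, 62.7 and 68.8 in naive and 46.2, 40.4 and 41.3 in EPL libraries. Hk1 was thus lower at each stage than at the one before it, without overlap. EPL cells held 4.23-fold less than ground state cells (log2 change -2.08 ± 0.07, edgeR adjusted p = 1.24e-17). Hk2, the inducible form, was not called in naive cells (0.02 ± 0.08, edgeR adjusted p = 0.876) and was lower in EPL than in ground state cells (-0.62 ± 0.08, edgeR adjusted p = 5.18e-07). Gpi1, which converts glucose-6-phosphate to fructose-6-phosphate, was lower in naive (-0.45 ± 0.07) and in EPL cells (-0.56 ± 0.07) than in the ground state.

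Phosphofructokinase commits sugar to glycolysis, and its liver-type gene Pfkl was higher in naive than in ground state cells and higher again in EPL cells. Pfkl had 122, 107 and 159 CPM in D3 ground state libraries, 230.5, 316 and 261 in naive and 525, 525 and 532 in EPL libraries. The A2 values were 187, 171 and 219 CPM in ground state, 306, 326 and 301 in naive and 558, 508 and 465 in EPL libraries. The stages did not overlap in either line. EPL cells had 3.29-fold more Pfkl than ground state cells (log2 change 1.72 ± 0.13, edgeR adjusted p = 5.09e-11) and 1.79-fold more than naive cells (log2 change 0.84 ± 0.12, edgeR adjusted p = 7.37e-06). The muscle-type gene Pfkm was lower in naive than in ground state cells, and returned in EPL cells of D3 only. It had 59.7, 57.7 and 58.95 CPM in D3 ground state, 33.6, 32.5 and 31.2 in naive and 55.5, 58.5 and 58.8 in EPL libraries. In A2 it had 61.5, 55.04 and 63.8 CPM in ground state, 45.1, 47.9 and 44.6 in naive and 51.3, 47.4 and 44.96 in EPL libraries. Naive libraries were below ground state libraries in both lines, with a log2 change of -0.62 ± 0.05 (edgeR adjusted p = 2.66e-10), while D3 EPL libraries were close to D3 ground state ones. A2 EPL libraries lay below the A2 ground state ones and overlapped the A2 naive ones, a difference not called in A2 alone. The platelet-type gene Pfkp was not called in naive or EPL cells against the ground state when the lines were averaged, and the lines differed for it. Pfkfb3, which makes the fructose-2,6-bisphosphate that activates phosphofructokinase, was higher in naive (0.63 ± 0.09, edgeR adjusted p = 2.35e-06) and EPL cells (0.66 ± 0.09, edgeR adjusted p = 1.04e-06) than in the ground state. Pfkm and Pfkp overlap Senp1 and Pitrm1 on the opposite strand. The library kit does not mark strand, so reads from the shared stretches cannot be assigned to one partner.

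The 6 genes from aldolase to phosphoglycerate mutase were not called in naive cells against the ground state. Pgk1 (0.27 ± 0.13, edgeR adjusted p = 0.0627) and Pgam1 (0.13 ± 0.06, edgeR adjusted p = 0.0594) lay near the threshold: both were called higher under other size factors, total count scaling, no filter on low counts or DESeq2, and Pgk1 in D3 alone (0.46 ± 0.18). In EPL cells 4 of the 6 were called higher than in the ground state, namely Pgk1, Tpi1, Aldoc (0.57) and Pgam1 (0.15). The Aldoc call was lost without A2 EPL replicate 1 (0.47) or D3 ground state replicate 2 (0.54), in DESeq2 (adjusted p = 0.0509), and in each line alone (0.56 in D3 and 0.58 in A2). The Pgam1 call was lost without A2 EPL replicate 1 (0.14) or A2 ground state replicate 2 (0.14), and in A2 alone (0.10). Pgk1, which makes the first ATP of glycolysis, had 402, 362 and 523 CPM in D3 ground state libraries, 506, 676 and 588 in naive and 974, 1039 and 1127 in EPL libraries. Its A2 values were 483, 504 and 572 CPM in ground state, 540.3, 574 and 544 in naive and 1089, 894 and 879 in EPL libraries. All EPL libraries were above all others of their line. The log2 change was 1.08 ± 0.13 against ground state (edgeR adjusted p = 1.06e-07) and 0.81 ± 0.13 against naive cells (edgeR adjusted p = 1.56e-05). Tpi1, which interconverts the 2 triose phosphates, changed by 0.75 ± 0.13 and 0.66 ± 0.13 in the same pair of comparisons. Aldoa, the main aldolase, had log2 changes of -0.12 ± 0.11 in naive and 0.09 ± 0.11 in EPL cells against the ground state, and neither was called. Gapdh, often used as a reference gene, had 212 ± 9.73 CPM in D3 EPL and 218 ± 20.1 in D3 ground state libraries (SD, n = 3 each), a difference that was not called. Gapdh counts are uncertain, because 93 other annotated genes, 89 of them pseudogenes, match it nearly identically and together held 44.2% of the combined counts.

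Enolase and pyruvate kinase close the pathway to pyruvate. Eno1, the ubiquitous enolase, had 1403, 1249.8 and 1587 CPM in D3 ground state, 1948, 2314 and 1933 in naive and 2213, 2139.5 and 2132 in EPL libraries, and was higher in EPL than ground state cells by 0.56 ± 0.08 (edgeR adjusted p = 1.29e-06). Near-identical copies of Eno1 held 28.0% of the combined counts. Pkm had 2667, 2419.5 and 3042 CPM in D3 ground state, 3476, 4166 and 3689.5 in naive and 4876, 4749 and 4727 in EPL libraries. Its A2 values were 3325, 3022 and 3565 CPM in ground state, 4092, 4118 and 3938 in naive and 5255, 4977 and 4737 in EPL libraries, so it stood higher at each stage than at the one before without overlap in both lines. The counts are per gene and do not separate the splice forms of Pkm. Eno3, the muscle enolase, peaked in naive cells: it had 6.79, 7.95 and 8.21 CPM in D3 ground state, 37.2, 44.8 and 40.04 in naive and 15.1, 12.9 and 14.9 in EPL libraries. In A2 it had 6.38, 8.12 and 6.41 CPM in ground state, 20.7, 22.2 and 18.7 in naive and 14.2, 12.9 and 12.4 in EPL libraries. The naive level was 3.96-fold above the ground state (log2 change 1.98 ± 0.08, edgeR adjusted p = 9.23e-16), and the EPL level was below the naive one by 2.11-fold (log2 change -1.08 ± 0.07, edgeR adjusted p = 9.29e-11). Eno2 stayed under 5 CPM in all D3 and A2 libraries at these 3 stages.

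The lactate branch held the gene with the widest change. Slc16a3 encodes MCT4, a lactate exporter of highly glycolytic cells. It had 8.41, 7.85 and 17.1 CPM in D3 ground state libraries, 90.2, 135 and 96.5 in naive and 288, 271 and 298 in EPL libraries. In A2 it had 14.99, 17.5 and 17.9 CPM in ground state, 50.1, 63.6 and 51.5 in naive and 165, 143 and 152 in EPL libraries. The 3 stages were fully separated in each line. Slc16a3 was 15.4-fold higher in EPL than in ground state cells (log2 change 3.94 ± 0.26, edgeR adjusted p = 6.57e-12) and 2.72-fold higher than in naive cells (log2 change 1.45 ± 0.23, edgeR adjusted p = 1.61e-05). Ldha, the lactate dehydrogenase subunit of glycolytic tissue, had 794, 729 and 1119 CPM in D3 ground state, 1405, 2026 and 1630.1 in naive and 2256, 2332 and 2551 in EPL libraries. The A2 values were 922, 975 and 1068 CPM in ground state, 1235, 1428 and 1208 in naive and 2158, 1909 and 1853 in EPL libraries. Its log2 change against the ground state was 0.66 ± 0.14 in naive cells (edgeR adjusted p = 0.000317) and 1.22 ± 0.14 in EPL cells (edgeR adjusted p = 1.09e-07). Ldhb, the subunit of oxidative tissue, ran the other way. It had 262, 278 and 287 CPM in D3 ground state, 102, 144 and 106 in naive and 92.5, 105 and 128 in EPL libraries, and 292, 251 and 313 CPM in A2 ground state, 168, 214 and 188 in naive and 186, 124 and 143 in EPL libraries. Naive and EPL libraries lay below all ground state libraries but overlapped each other, and the log2 changes were -0.91 ± 0.11 and -1.13 ± 0.11 against the ground state (edgeR adjusted p = 1.65e-07 and 4.27e-09). Slc16a1, which encodes the broadly expressed transporter MCT1, was not called in naive cells and was higher in EPL cells by 0.35 ± 0.06 (edgeR adjusted p = 2.9e-05).

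At the entry to mitochondria, Pdk1, a kinase that inactivates pyruvate dehydrogenase, had 40.9, 43.4 and 56.7 CPM in D3 ground state libraries, 229, 240.0 and 246 in naive and 236, 258 and 275 in EPL libraries. In A2 it had 49.98, 47.6 and 55.9 CPM in ground state, 188, 194 and 185 in naive and 253, 237 and 238 in EPL libraries. The log2 change against the ground state was 2.12 ± 0.12 in naive cells (edgeR adjusted p = 4.05e-13) and 2.35 ± 0.12 in EPL cells (edgeR adjusted p = 4.61e-14), and EPL against naive cells was not called (0.23 ± 0.11, edgeR adjusted p = 0.084). Pdha1, the catalytic subunit that this kinase phosphorylates, was lower. It had 327, 318 and 318 CPM in D3 ground state, 224, 216 and 227 in naive and 187, 199 and 187 in EPL libraries, and 326, 306 and 344 CPM in A2 ground state, 272, 265 and 265 in naive and 267, 236 and 231 in EPL libraries. The EPL change against the ground state was -0.58 ± 0.05 (edgeR adjusted p = 1.05e-10). Pdk3, another kinase of the family, was higher in naive than ground state cells by 0.23 ± 0.05 (edgeR adjusted p = 0.000397). Bnip3, which marks mitochondria for removal, had 8.81, 8.41 and 11.9 CPM in D3 ground state, 39.5, 62.9 and 53.00 in naive and 68.6, 70.1 and 84.9 in EPL libraries. Its A2 values were 9.88, 13.6 and 12.6 CPM in ground state, 36.8, 46.8 and 44.2 in naive and 83.1, 62.6 and 63.7 in EPL libraries. All naive and EPL libraries exceeded all ground state ones, by 2.13 ± 0.27 in naive cells (edgeR adjusted p = 4.18e-07) and 2.74 ± 0.27 in EPL cells (edgeR adjusted p = 6.26e-09) on the log2 scale.

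Of the 6 pentose phosphate genes, naive cells had 4 lower than the ground state (Pgd, Rpe, Rpia and Taldo1) and none higher. The Rpia call (-0.23) was lost without any 1 of 7 libraries, where the change was -0.20 to -0.17. It was also lost under other size factors, total count scaling, no filter on low counts and DESeq2 (-0.21 to -0.17) and in D3 alone (-0.14). Taldo1 (-0.22) was called with both lines and in neither line alone (-0.21 in D3 and -0.22 in A2). EPL cells had 3 lower (Rpe, Pgd and Taldo1) and 1 higher, G6pdx, the gene of the first and rate-limiting enzyme. G6pdx overlaps Ikbkg on the opposite strand, so its counts may include reads of that gene. G6pdx had 79.6, 77.8 and 87.1 CPM in D3 ground state, 88.6, 86.7 and 88.6 in naive and 133, 132 and 122 in EPL libraries, and 86.96, 73.8 and 86.8 CPM in A2 ground state, 69.9, 72.8 and 74.9 in naive and 127, 118 and 112 in EPL libraries. All EPL libraries were above all others of their line, by 0.60 ± 0.05 against ground state (edgeR adjusted p = 3.61e-10). Pgd, which produces the second NADPH of the pathway, had 331, 307 and 319 CPM in D3 ground state, 217, 237 and 211 in naive and 225, 206 and 201 in EPL libraries. In A2 it had 364, 315 and 356 CPM in ground state, 207, 219 and 209 in naive and 256, 237 and 233 in EPL libraries. Pgd was lower than in the ground state, with log2 changes of -0.62 ± 0.05 in naive and -0.56 ± 0.05 in EPL cells (edgeR adjusted p = 1.75e-10 and 7.29e-10). Rpe, the epimerase of the non-oxidative arm, was lower in both, with log2 changes of -0.43 ± 0.04 and -0.60 ± 0.04. Tkt, transketolase, was not called in either comparison.

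Because several steps have alternative genes, the balance within each step was measured as the log2 ratio of counts in each library. In naive and EPL cells the balance moved from Slc2a3 to Slc2a1, from Hk1 to Hk2, from Pfkm and Pfkp to Pfkl, from Ldhb to Ldha, from Pdk3 to Pdk1 and from Slc16a1 to Slc16a3. Against the ground state, the log2 ratio changed in EPL cells by -2.33 for Slc2a3 over Slc2a1, 1.45 for Hk2 over Hk1 and -2.37 for Ldhb over Ldha. It changed by -1.96 for Pfkp over Pfkl, -1.91 for Pfkm over Pfkl, -2.47 for Pdk3 over Pdk1 and 3.63 for Slc16a3 over Slc16a1. In naive cells the same ratios changed by -1.88 for Slc2a3 over Slc2a1, 1.40 for Hk2 over Hk1, -1.58 for Ldhb over Ldha, -0.72 for Pfkp over Pfkl, -1.50 for Pfkm over Pfkl, -1.89 for Pdk3 over Pdk1 and 2.60 for Slc16a3 over Slc16a1. Each of these 7 had, at both stages, an adjusted p of 0.00652 in a two-sided exact permutation test within lines, in which 400 arrangements allow no unadjusted p below 0.005. Of 30 such tests (10 ratios in 3 comparisons, adjusted together), 25 had an adjusted p below 0.05. The 5 that did not were Hk2 over Hk1 in EPL against naive cells (0.05), Aldoc over Aldoa in naive against ground state cells (0.01) and Eno2 over Eno1 in all 3.

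Per kilobase, Slc2a1 made up 28.5% of the 2 glucose transporters in D3 ground state cells, 62.4% in naive and 69.5% in EPL cells. In A2 it made up 31.6% in ground state, 60.1% in naive and 67.2% in EPL cells. Per kilobase, the major transporter of the 2 thus differed between ground state and later stages in both lines. By counts alone Slc2a3 still exceeded Slc2a1 in naive cells, with a mean log2 ratio of 0.46 in A2 and 0.31 in D3. In EPL cells that ratio was 0.01 in A2 and -0.14 in D3. The shares rest on exon lengths merged over all annotated transcripts, 7245 bases for Slc2a3 and 3506 for Slc2a1. Ldhb made up 40.2% of lactate dehydrogenase transcripts in D3 ground state cells, 12.8% in naive and 8.73% in EPL cells. The A2 shares were 37.8% in ground state, 23.7% in naive and 13.8% in EPL cells. Per kilobase, Pdk3 was the larger of the 2 kinases in ground state cells, with 67.4% in D3 and 63.1% in A2. In EPL cells it made up 26.2% in D3 and 24.6% in A2. By counts Pdk1 was the larger in ground state cells too, with a mean log2 ratio of Pdk3 over Pdk1 of -0.55 in D3 and -0.83 in A2. Slc16a3 made up 4.93% of the 2 lactate transporters in D3 ground state cells, 33.7% in naive and 51.8% in EPL cells. In A2 it made up 9.07% in ground state, 26.7% in naive and 41.4% in EPL cells, so Slc16a1 remained the larger in A2. Pfkl made up 36.2% of phosphofructokinase in D3 ground state cells, 61.1% in naive and 74.8% in EPL cells, and in A2 48.2% in ground state, 60.5% in naive and 71.4% in EPL cells. Per kilobase, Pfkl had the largest mean share of the 3 at each of these stages in both lines. In D3 ground state cells the margin was small, with 33.1% for Pfkm and 30.7% for Pfkp. By counts Pfkp exceeded Pfkl in each D3 ground state library, with ratios of 1.75, 2.03 and 1.41. The merged exon length was 13401 bases for Pfkp and 6675 for Pfkl.

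**Figure D3:**
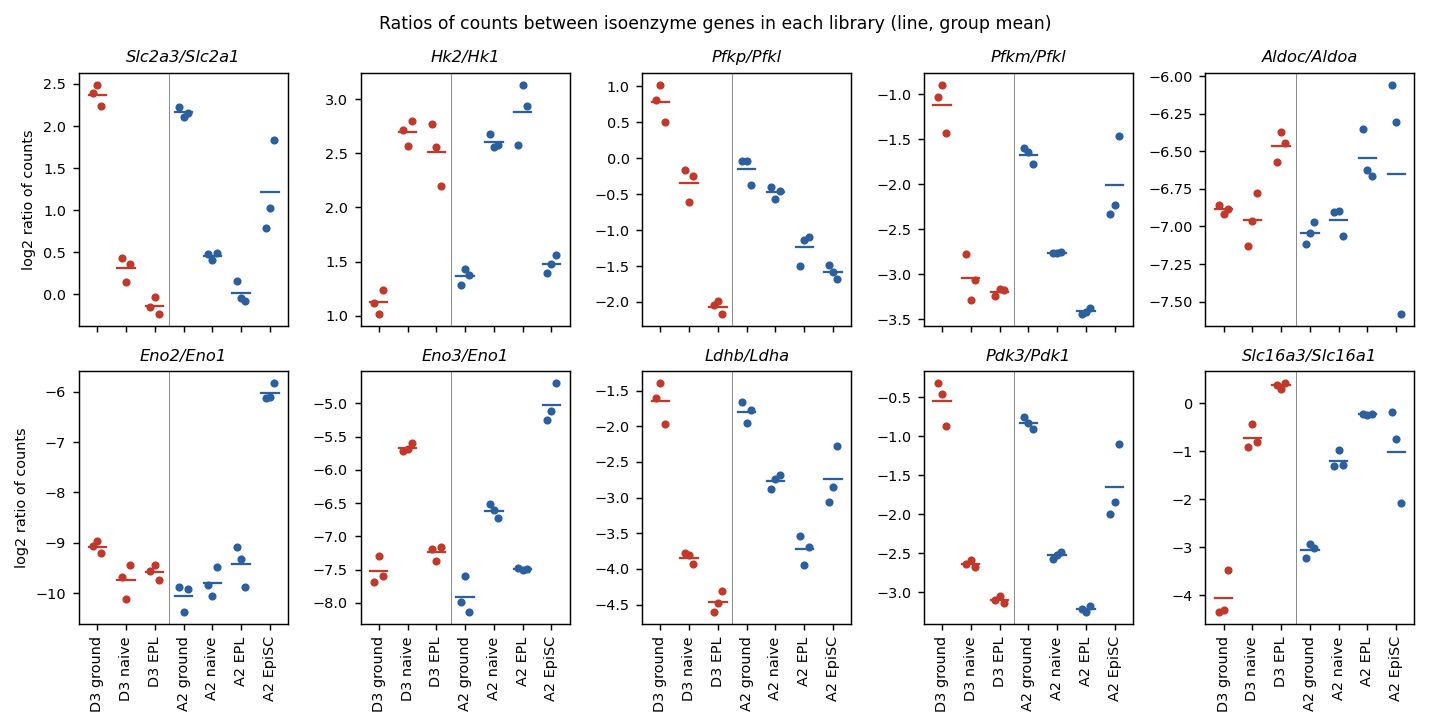
Log2 ratio of counts for 10 pairs of alternative genes in each library, by line and stage; points are libraries and bars the group means. Slc2a3 over Slc2a1, Ldhb over Ldha and Pdk3 over Pdk1 are lower in naive and EPL libraries than in ground state ones in both lines, and Slc16a3 over Slc16a1 is higher.

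Most of the 33 genes were lower in EpiSCs than in EPL cells. Of the 33, 7 were higher and 21 lower in EpiSCs than in A2 EPL cells, beside 39.1% and 31.3% of all genes tested, with a median log2 change of -0.74 over the 33 and 0.07 over all genes. Without EpiSC replicate 3, 7 were higher and 20 lower, with a median of -0.49. Against A2 ground state cells 8 were higher and 20 lower, beside 39.1% and 34.1% of all genes, and without replicate 3 the counts were 10 and 18. Against A2 naive cells 8 were higher and 15 lower, beside 39.1% and 31.2%, and without replicate 3 the counts were 10 and 14. The EpiSC libraries also held more transcripts of genes used as markers of other cell types. All 8 fibroblast markers were higher than in EPL cells, with a sum of 2110 to 2652 CPM in EpiSC libraries. The sum was 5.27 to 12.4 CPM in all others, where Dcn, Lum, Postn and Col3a1 were each at 0 in at least 1 group. Most of the EpiSC sum came from the collagen genes Col1a1, Col1a2 and Col3a1, which averaged 1232, 716 and 281 CPM. The remaining markers averaged 6.38 to 30.2 CPM each. Such markers need not be specific: Thy1, from the same 8, averaged 6.92 CPM in A2 naive and 0.674 in A2 ground state cells. The 4 primitive endoderm markers summed to 62.6 to 88.3 CPM in EpiSC libraries against 1.30 to 14.4 CPM elsewhere. Both sums were highest in EpiSC replicate 3. In replicates 1, 2 and 3 the fibroblast sum was 2242, 2110 and 2652 CPM and the primitive endoderm sum 62.6, 68.8 and 88.3 CPM. The part of these marker transcripts in the EpiSC results, and in replicate 3, was not tested. In bulk RNA fewer cells of a type and less RNA per cell cannot be told apart.

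The genes from aldolase to lactate dehydrogenase other than Eno2 and Eno3 were lower in EpiSCs than in EPL cells. Ldha had 753, 684 and 332 CPM in the 3 EpiSC libraries, against 2158, 1909 and 1853 CPM in A2 EPL libraries, and was 3.35-fold lower (log2 change -1.74 ± 0.21, edgeR adjusted p = 1.22e-07; -1.47 without replicate 3). Pkm had 2564, 2359 and 1649.6 CPM in EpiSC libraries, against 5255, 4977 and 4737 in EPL libraries (-1.19 ± 0.12, edgeR adjusted p = 8.87e-09). Eno1 had 1011, 950.0 and 712 CPM in EpiSC libraries, against 2522, 2355 and 2236 in EPL libraries (-1.41 ± 0.11, edgeR adjusted p = 1.95e-10). None of these EpiSC libraries overlapped the EPL libraries, and replicate 3 was the lowest for each gene. Aldoa, Tpi1, Gapdh, Pgk1 and Pgam1 were lower too, with log2 changes of -1.16 to -0.87, all called. Tpi1 and Pgk1 were not called against ground state cells (-0.32 ± 0.19 and -0.28 ± 0.18, or -0.09 and -0.04 without replicate 3), nor against naive cells (-0.26 ± 0.19 and -0.37 ± 0.18). Pfkp had 101, 81.1 and 43.1 CPM in EpiSC libraries, against 198, 231 and 218 in EPL libraries (-1.52 ± 0.17, edgeR adjusted p = 3.71e-08). Pfkl was lower than in EPL cells (-1.20 ± 0.18) and was not called against ground state cells (0.21 ± 0.18, edgeR adjusted p = 0.299). All 6 pentose phosphate genes were lower in EpiSCs than in ground state cells, from -1.66 for Rpe to -0.22 for Tkt, although with total count scaling Tkt turned to 0.05 and G6pdx (-0.39 with TMM) was -0.12 and not called. The Tkt call was also lost without EpiSC replicate 3 (-0.13), A2 ground state replicate 1 (-0.18) or replicate 3 (-0.16).

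Some genes went against this. Eno2 had 14.5, 13.8 and 12.6 CPM in EpiSC libraries, against 4.61, 3.63 and 2.35 in A2 EPL and 1.70, 1.16 and 1.85 in A2 ground state libraries. All EpiSC libraries were above the others, by 1.94 ± 0.18 against EPL cells and 3.11 ± 0.20 against ground state cells on the log2 scale (edgeR adjusted p = 2.65e-09 and 3.87e-12). Eno3 had 26.5, 27.4 and 27.6 CPM in EpiSC libraries, against 14.2, 12.9 and 12.4 in EPL libraries (1.05 ± 0.10, edgeR adjusted p = 8.61e-09). Hk1, Slc2a3 and Gpi1, which were lower in EPL cells than in the ground state, were higher in EpiSCs than in EPL cells, by 0.53 ± 0.09, 0.55 ± 0.08 and 0.39 ± 0.09. Pfkfb3 and Pdk3 were higher by 0.63 ± 0.12 and 0.51 ± 0.07. Slc2a1 was lower in EpiSCs than in EPL cells (-0.54 ± 0.20), a value that was -0.23 without replicate 3 and -0.89 without replicate 1. With total count scaling it was -0.34 and not called (edgeR adjusted p = 0.128). Against ground state cells Slc2a1 was higher (0.67 ± 0.20, edgeR adjusted p = 0.00435), and this call was lost without replicate 1 (0.32, edgeR adjusted p = 0.109).

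Slc16a3, Bnip3 and Pdk1 were higher in EpiSCs than in the ground state, and varied widely between EpiSC libraries. Slc16a3 had 149, 105 and 31.1 CPM in EpiSC libraries, against 14.99, 17.5 and 17.9 in A2 ground state libraries (2.50 ± 0.35, edgeR adjusted p = 1.37e-06). Bnip3 had 70.8, 54.5 and 11.2 CPM in EpiSC libraries, against 9.88, 13.6 and 12.6 in ground state libraries (1.92 ± 0.38, edgeR adjusted p = 9.31e-05). In EpiSC replicate 3 Bnip3 was within the range of the ground state libraries. The SD of Bnip3 over the 3 EpiSC libraries was 1.43 on the log2 scale, the largest of any of the 33 genes in any group. Pdk1 had 149.9, 139.7 and 75.03 CPM in EpiSC libraries, against 253, 237 and 238 in EPL and 49.98, 47.6 and 55.9 in ground state libraries, without overlap. Against naive cells, Slc16a3 was higher by 0.79 ± 0.32 (edgeR adjusted p = 0.0339), which was 1.20 without EpiSC replicate 3. The Slc16a3 call was lost without EpiSC replicate 1 (0.30), EpiSC replicate 2 (0.70), A2 naive replicate 1 (0.71) or A2 naive replicate 3 (0.73). It was also lost with the replicate block (0.68, edgeR adjusted p = 0.0718) and in DESeq2 (0.77, adjusted p = 0.077). Pdk1 was lower than in naive cells (-0.64 ± 0.16, or -0.39 without replicate 3).

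The same EpiSC library moved several other values by over 1.5 times. Aldoc against EPL cells was -0.92 with all libraries and -0.49 without replicate 3. Against ground state cells Gpi1 was -0.35 and -0.23, and Ldha -0.75 and -0.47, with and without it. Against naive cells Pfkl was -0.49 and -0.25, and its call was lost without that library. Leaving out replicate 1 instead gave 0.17, no longer called, for Slc2a3 against naive cells (0.29 with all libraries) and 0.29 for Pfkfb3 (0.48 with all libraries).

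**Figure D4:**
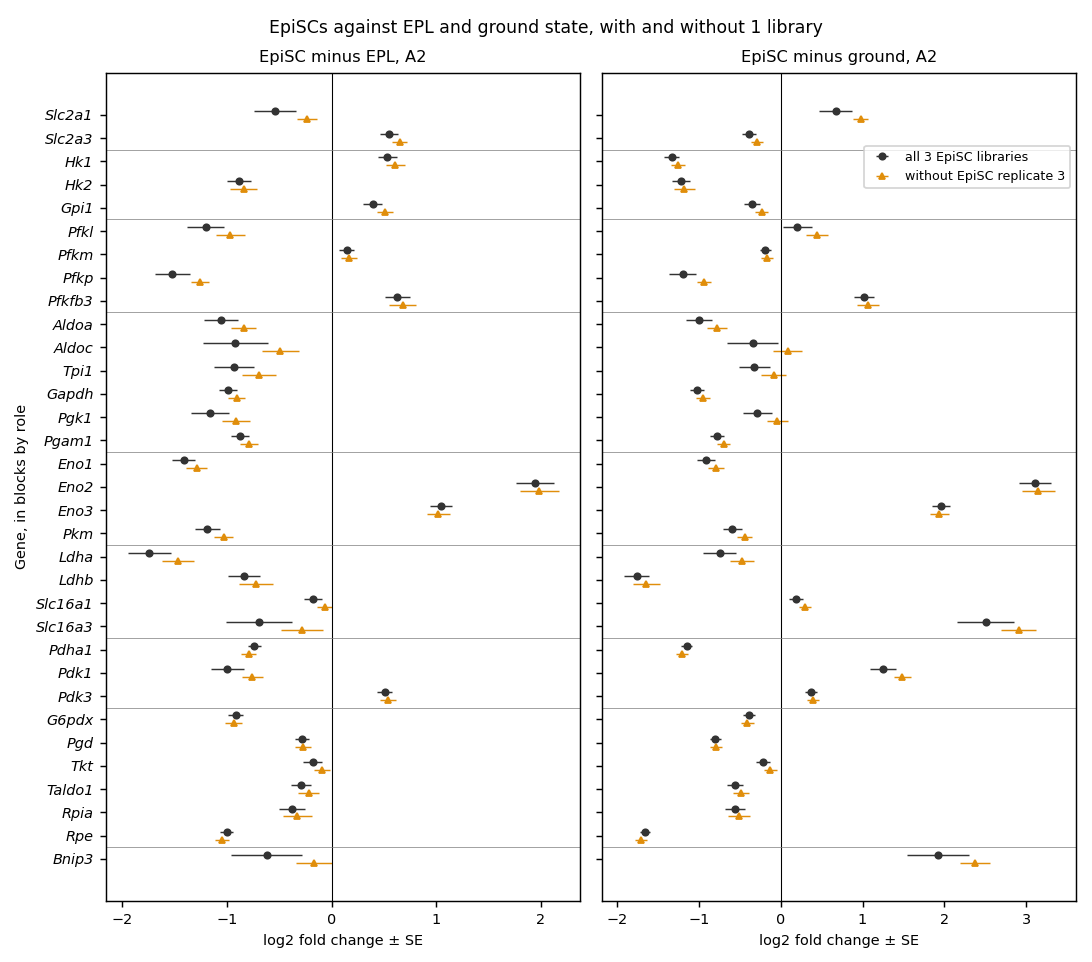
Log2 fold changes with standard errors of the 33 genes in A2 EpiSCs against A2 EPL cells (left) and against A2 ground state cells (right), with all 3 EpiSC libraries and without replicate 3. Eno2 and Eno3 lie to the right of 0 in both panels, the genes from Aldoa to Pkm other than these lie to the left of 0 against EPL cells, and most points move toward higher values without replicate 3.

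In EpiSCs the mean log2 ratio of alternative genes lay between those of ground state and EPL cells for 7 of the 10 pairs, all but Pfkp over Pfkl, Eno2 over Eno1 and Eno3 over Eno1. Without EpiSC replicate 3 it was 6 of the 10, since Aldoc over Aldoa then differed by 0.36 from EPL and 0.86 from ground state cells, against -0.10 and 0.40 with all 3. With 3 libraries against 3 the smallest two-sided exact p is 0.1, so the ratios are given as values. The log2 ratio of Slc2a3 over Slc2a1 in EpiSCs differed by 1.20 from EPL and by -0.95 from ground state cells. For Ldhb over Ldha the differences were 0.99 and -0.94, and for Pdk3 over Pdk1 1.57 and -0.82. In each of these 3 pairs the EpiSC libraries overlapped neither the EPL nor the ground state libraries. Hk2 over Hk1 was close to the ground state, with a difference of 0.11 from it and -1.40 from EPL cells. Eno2 over Eno1 differed most, by 3.42 from EPL cells, although Eno2 still made up only 1.59% ± 0.159 of enolase transcripts per kilobase in EpiSCs (SD, n = 3). Slc2a1 made up 47.2% ± 9.29 of the 2 glucose transporters in EpiSCs (SD, n = 3).

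The lines were compared over the 3 stages they share. D3 had 5 genes higher and 7 lower than A2, beside 20.0% and 20.7% of all genes tested. The higher genes were Eno3, Slc16a1, Tkt, Pdk3 and G6pdx, by 0.41, 0.36, 0.20, 0.19 and 0.13 on the log2 scale. The lower ones were Rpe (-0.60), Hk2 (-0.51), Ldhb (-0.40), Hk1 (-0.34), Slc2a3 (-0.32), Slc2a1 (-0.29) and Pdha1 (-0.21). Rpe was the clearest, with 109, 99.00 and 103 CPM in D3 and 152, 152 and 159 CPM in A2 ground state libraries. The Slc2a1 call had an edgeR adjusted p of 0.0484 and was lost on leaving out any single library but D3 naive replicate 2, with values of -0.31 to -0.26.

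The response to losing 2i differed between lines for 2 of the 33 genes and the EPL response for 8, tested as the D3 change minus the A2 change. For naive cells 1 gene was higher and 1 lower, beside 1.51% and 1.56% of all genes. For EPL cells 3 were higher and 5 lower, beside 7.25% and 6.06%. Pfkp had 127, 132 and 118 CPM in D3 EPL libraries against 214, 218 and 225 in D3 ground state libraries, but 198, 231 and 218 CPM in A2 EPL libraries against 181, 167 and 168 in A2 ground state libraries. It was therefore lower in D3 EPL cells (-0.80 ± 0.16) and not called in A2 EPL cells (0.33 ± 0.16), and the difference between the lines was -1.12 ± 0.23 (edgeR adjusted p = 0.00191). Slc16a3 rose in both lines, by 4.69 ± 0.38 in D3 and 3.19 ± 0.36 in A2 EPL cells, a difference of 1.50 ± 0.49 (edgeR adjusted p = 0.0474). This call was lost on leaving out any single library of the 4 groups but D3 ground state replicate 3, with values of 1.28 to 1.57. That library held the highest Slc16a3 level of the D3 ground state. The Eno3 change from ground state to naive cells was larger in D3 than in A2 (2.41 ± 0.11 in D3 and 1.56 ± 0.11 in A2, difference 0.85 ± 0.16, edgeR adjusted p = 0.00279).

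Other genes of glucose metabolism were counted on lists beside the 33. In naive cells 31.7% of all genes tested were called higher and 31.8% lower than in the ground state, in EPL cells 33.1% and 33.2%, and in EpiSCs against EPL cells 39.1% and 31.3%, which is the background for the counts on each list. Of 23 further genes of glucose transport and glycolysis that were tested, 4 were higher and 8 lower in naive and 7 were higher and 6 lower in EPL cells than in the ground state, with medians of 0.05 and 0.16, beside 0.01 and 0.00 over all genes. Tigar, which lowers fructose-2,6-bisphosphate, was lower, with log2 changes of -0.60 ± 0.05 in naive and -1.05 ± 0.05 in EPL cells, as was Pfkfb4, a bifunctional enzyme of the same metabolite (-0.97 ± 0.13 and -0.56 ± 0.13). Of 12 further pentose phosphate and ribose genes, 6 were higher and 3 lower in naive and 3 were higher and 3 lower in EPL cells, with medians of 0.20 and -0.03. Pgm2, a phosphoglucomutase, was lower (-1.58 ± 0.05 in naive and -1.50 ± 0.05 in EPL cells), while Pgm1 was higher (0.97 ± 0.13 and 1.21 ± 0.13). The D3 change minus the A2 change passed the threshold in EPL cells for Tigar (-0.38 ± 0.10) and Pgm1 (1.32 ± 0.26), and in naive cells for Pgm2 (-0.44 ± 0.10). In EpiSCs the transketolase-like genes Tktl2 and Tktl1 were higher than in EPL cells by 5.84 ± 0.32 and 2.57 ± 0.26. Both started from low levels: Tktl2 averaged 0.308 CPM in A2 EPL cells and 18.1 in EpiSCs, and Tktl1 1.02 and 6.16 CPM. Against EPL cells, 7 were higher and 8 lower in EpiSCs among the 23 genes (median -0.12), and 7 were higher and 3 lower among the 12 (median 0.62), beside a median of 0.07 over all genes.

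Of 13 other genes of pyruvate entry, 5 were higher and 2 lower in naive and 5 were higher and 5 lower in EPL cells, with medians of 0.20 and 0.11. Pdp2, a phosphatase that reactivates pyruvate dehydrogenase, was lower (-2.04 ± 0.09 in naive and -1.40 ± 0.09 in EPL cells), whereas its relative Pdp1 was higher (0.83 ± 0.10 and 1.11 ± 0.10). Mpc1 and Mpc2, the subunits of the mitochondrial pyruvate carrier, were lower in EPL cells, with log2 changes of -0.67 ± 0.12 and -0.65 ± 0.09. For Mpc1 the lines differed (D3 minus A2 -0.98 ± 0.23, edgeR adjusted p = 0.00604): it averaged 3.58 CPM in D3 EPL and 8.04 in D3 ground state libraries, and 6.92 CPM in A2 EPL and 7.82 in A2 ground state libraries. The lines also differed in EPL cells for Pdp1 (0.70 ± 0.20). Pdk4, a kinase of the same family as Pdk1, was higher in EpiSCs than in EPL cells by 2.61 ± 0.16. Of 17 tricarboxylic acid cycle genes, 4 were higher and 6 lower in naive cells than in the ground state. In EPL cells 3 were higher and 8 lower, with medians of -0.10 in naive and -0.16 in EPL cells. In EpiSCs 2 were higher and 11 lower than in A2 ground state cells (median -0.31). Of all genes tested, 39.1% were higher and 34.1% lower in that comparison. Without EpiSC replicate 3, 2 were higher and 9 lower, with a median of -0.25. Idh2, a mitochondrial isocitrate dehydrogenase, was lower, with log2 changes of -1.06 ± 0.07 in naive and -0.83 ± 0.07 in EPL cells, and the naive change differed between lines by 0.65 ± 0.14. Of 4 gluconeogenesis genes tested, 0 were higher and 2 lower in EPL cells (median -0.65), with Fbp2, a fructose bisphosphatase, at -1.95 ± 0.14, and Fbp2 was higher in EpiSCs than in EPL cells by 2.81 ± 0.20.

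Hypoxia-inducible genes outside the 33 were counted beside them. Of 27 tested, 13 were higher and 5 lower in naive and 17 were higher and 7 lower in EPL cells than in the ground state, with medians of 0.49 and 0.61 against 0.01 and 0.00 over all genes. Egln3, a prolyl hydroxylase that acts on hypoxia-inducible factors, was higher by 2.01 ± 0.28 and 2.78 ± 0.27, and Stc2, which encodes the secreted stanniocalcin 2, by 1.78 ± 0.13 and 1.72 ± 0.13. Ak4, a mitochondrial adenylate kinase, went the other way (-2.61 ± 0.10 and -3.19 ± 0.10), and its EPL change differed between lines by -0.57 ± 0.18. Of the 27, 17 were higher and 5 lower in EpiSCs than in EPL cells. The median was 0.92, beside 0.07 over all genes. The largest changes were in Adm, which encodes the vessel-dilating peptide adrenomedullin (4.28 ± 0.36), and Anxa2, which encodes the membrane-binding annexin A2 (3.60 ± 0.12). Of these 27 genes 23 were lowest in EpiSC replicate 3. Without that library 19 were higher and 5 lower than in EPL cells.

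With the 2 lines averaged, all 5 regulators followed here were called higher in naive and in EPL cells than in the ground state. Myc was higher by 2.50 ± 0.07 and 2.54 ± 0.07, and the RNA-binding genes Lin28a and Lin28b by 2.29 ± 0.06 and 1.77 ± 0.09 in naive and 2.77 ± 0.06 and 2.66 ± 0.09 in EPL cells. Mycn was higher by 0.89 ± 0.05 and 1.23 ± 0.05, and Hif1a, the hypoxia-inducible subunit, by 0.15 ± 0.05 and 0.18 ± 0.05. In EpiSCs Myc, Lin28a and Mycn were lower than in EPL cells, with log2 changes of -2.35 ± 0.10, -2.22 ± 0.08 and -1.99 ± 0.07, while Hif1a was higher by 0.23 ± 0.07. The EPL change differed between lines for Myc (-0.48 ± 0.14), Lin28a (-0.45 ± 0.11) and Hif1a (0.39 ± 0.10). Hif1a averaged 191 CPM in D3 EPL and 147 in D3 ground state cells, but 139 CPM in A2 EPL and 140 in A2 ground state cells.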

How the data were processed

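Polyadenylated RNA libraries made with a TruSeq RNA v2 kit, per the labels' protocols, were aligned and counted per gene with HISAT2, SAMtools and featureCounts on GRCm38, per the submitters' processing notes, which give no versions. The counting's strand setting is unknown here. The authors deposited raw counts per gene for 21 libraries, and the groups were taken from the labels. From these counts, genes were filtered with filterByExpr (minimum count 10, minimum total 15), scaled by TMM and fitted with edgeR 4.0.16 (R 4.3.3) with 1 mean for each of 7 groups. Contrasts were tested with the quasi-likelihood test and Benjamini-Hochberg adjustment over 16575 genes. Scripts were tested on simulated data. Ratios of alternative genes used a pseudocount of 0.5. Exon lengths and overlaps came from a GENCODE annotation of GRCm38, near-identical copies from blastn 2.17.0 (95% identity over 200 bases), and promoters from RefSeq on GRCm38.p6, where several windows of a gene were reduced to the one nearest the annotated gene start.

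The 33 genes and all other gene lists were chosen with earlier results of these data known. All 33 are named by role. From each other list the text names genes among the 4 called genes with the largest change in a comparison that reached 5 CPM, and the regulators by name. Alternatives were other scalings (relative log expression and total counts), no filter or a stricter one (1 CPM in 3 libraries), DESeq2 1.42.0, each line alone, a replicate block, each library left out in turn and, chosen after seeing the data, counts of near-identical copies added to their gene and EpiSC values without replicate 3.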

Additional observations from a re-analysis of the deposited data

Results flagged for a closer look

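The D3 and A2 responses differed past the threshold in 10 tests, over 9 genes. Each difference given is the D3 log2 change minus the A2 log2 change. After removal of 2i, Pfkm changed by -0.86 ± 0.07 in D3 and -0.39 ± 0.07 in A2 naive cells against their ground states, a difference of -0.47 ± 0.10 (edgeR adjusted p = 0.00939). Eno3 changed by 2.41 ± 0.11 in D3 and 1.56 ± 0.11 in A2, a difference of 0.85 ± 0.16 (edgeR adjusted p = 0.00279). Neither of these 2 calls was lost on leaving out any single library.

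In EPL cells against the ground state, the phosphofructokinase gene Pfkp was lower in D3 (-0.80) and not called in A2 (0.33), a difference of -1.12 ± 0.23 (edgeR adjusted p = 0.00191). Pdha1 changed by -0.75 in D3 and -0.41 in A2, a difference of -0.34 ± 0.09 (edgeR adjusted p = 0.0139). Both calls were kept on leaving out each library of the 4 groups in turn.

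The other 6 EPL differences were each lost when at least 1 library was left out. The differences were -0.44 ± 0.13 for Hk1 (edgeR adjusted p = 0.0251) and -0.56 ± 0.16 for Hk2 (edgeR adjusted p = 0.0214). Hk1 changed by -2.30 in D3 and -1.86 in A2, and Hk2 by -0.90 in D3 and -0.34 in A2. Eno2 differed by -1.04 ± 0.31 (edgeR adjusted p = 0.0268), with changes of 0.13 in D3 and 1.16 in A2. Slc16a3 differed by 1.50 ± 0.49 (edgeR adjusted p = 0.0474), Pfkfb3 by 0.54 ± 0.18 (edgeR adjusted p = 0.0498) and Pfkm by 0.30 ± 0.10 (edgeR adjusted p = 0.0482). Pfkm thus differed between lines in opposite directions at the naive and EPL stages. Its counts may include reads of Senp1, which overlaps it on the opposite strand, and that part was not tested. The naive and EPL differences share the ground state libraries.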

How the results depend on the processing

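Counts of genes called in EPL against naive cells were 5440 in A2 alone and 8489 with both lines. Scaling by total counts in place of TMM shifted the median of all genes in the EpiSC comparisons by 0.205 against EPL, 0.263 against ground state and 0.184 against naive cells, and raised the share of higher calls to 68.6%, 69.4% and 67.0%, against 55.5%, 53.5% and 55.6% with TMM. Under that scaling Pfkm turned to 0.079 (edgeR adjusted p = 0.281) and Tkt to 0.048 (edgeR adjusted p = 0.596) in EpiSCs against ground state cells. These were the 2 called values that reversed; some values that were not called also changed sign. For the naive difference between lines, dropping the filter on low counts gave 846 genes and 9 of the 33, against 508 and 2, and leaving out 1 library gave 310 to 515 genes. For the EPL difference between lines, leaving out 1 library gave 3 to 6 of the 33 genes, against 8. The cause was not tested. The replicate block gave 5 of the 33 there, without Pfkm, Pfkfb3 and Slc16a3. Within a line, replicate numbers did not pair libraries of different stages. Of 27 same-numbered pairs 3 had correlated deviations above 0.1, with a range of -0.16 to 0.21. Same-numbered libraries of 1 stage in the 2 lines were not correlated. Ground state replicate 2 was lowest for 26 of the 33 genes in A2 and 24 in D3. Naive replicate 2 was highest for 24 and 22. In EPL cells the library highest for most genes was replicate 1 in A2 (26) and replicate 3 in D3 (17). Whether such libraries shared a batch across lines was not tested. Of the 30 ratio tests, 2 missed the threshold under a block by sign flips and 1 without D3 naive replicate 1. Calls lost without single libraries also included Bnip3 and Eno2 in EPL against naive cells, Pdk3 and Pfkm in EpiSCs against naive cells, and Taldo1, Rpia and Aldoc in EpiSCs against EPL cells. Total count scaling also ended the calls of Pgd, Taldo1 and Rpia against EPL cells, of Slc2a3 and Gpi1 against ground state cells and of Pfkl, G6pdx and Taldo1 against naive cells in EpiSCs. Calls made with both lines and not in A2 alone also included Eno1 and Ldha in naive against ground state cells, and Pfkm, Pfkp, Aldoc, Pkm, Pdha1 and Bnip3 in EPL against naive cells. In D3 alone they included Pfkm and Eno2 in EPL against ground state cells, and Aldoc, Eno2, Rpe and Bnip3 in EPL against naive cells.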
